A study of Oryzias latipes with 4 samples.

Results

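Of the 93896 features in the medaka expression table, 33044 (35.2%) had no BLAST hit and lay apart from every feature that had one. The rule that chose them used annotation and position. A feature was taken if its description read "No hit" and its locus interval overlapped no row with a hit, and MEDAKA049999 and MEDAKA053207 were left out by name, 1 of which overlapped a row with a hit in any case. These 33044 features were 79.1% of the 41754 rows without a hit. The remaining No hit rows, 8709 in number, overlapped a row with a hit. No measured value is part of the rule. The rule was set with earlier results of these data known, and it does not say why the named features were left out.

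The RNA came from females of the medaka (Oryzias latipes), a teleost whose breeding follows the length of the day. The fish were bought from a local dealer and held under short days (SD). One group stayed under short days and the other was moved to long days (LD), and both were sampled 16 h after the move. The dissected block joined hypothalamus, pituitary and the lower (ventral) telencephalon, from 6 fish per condition, and each group has 2 libraries, called SD 1, SD 2, LD 1 and LD 2. The strain, the age and the hours of light are not given in the labels, nor is the way in which fish were divided between libraries. The p-values therefore set a difference against the spread between libraries, not a known spread between fish, and part of that spread may be technical. In such a mixed block fewer cells of a type and less RNA per cell cannot be told apart. Where 4 values are given for a feature or gene, they stand in the order SD 1, SD 2, LD 1, LD 2.

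The block carried the RNA its label names. All 8 pituitary markers and all 7 ventral telencephalic markers had a mean of at least 1 FPKM, the number of fragments scaled to the length of the feature and the size of the library, as did the 6 of 7 hypothalamic markers that were matched. Some marker sums were separate between the groups: the pituitary markers summed to 6948 and 7296 FPKM in SD and to 4018 and 5520 in LD, the ventral telencephalic markers to 519 and 499 against 485 and 482, and the astroglial markers to 1282 and 1201 against 1186 and 1051. The hypothalamic sums (1223 to 1673 FPKM), the oligodendrocyte sums (748 to 1551) and the haemoglobin sums (4576 to 7285) overlapped between groups, as did those of the liver markers (948 to 1194), of which 1 of 2 had a mean of at least 1. Of 4 skeletal muscle markers 1 reached that level, and rhodopsin, the retinal marker matched of 3 listed, summed to between 0.816 and 3.68. The part of these tissues and cells in the results below was not tested.

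A gene catalogue built from predicted and assembled transcripts holds many models that no known protein-coding sequence matches. Some are untranslated ends of known genes, since a search against coding sequences finds no match there. Others are long noncoding RNAs (lncRNAs), which are transcribed and often spliced and polyadenylated but do not encode a protein, or primary transcripts that are cut into microRNAs. Still others are computer predictions for which no RNA may exist in a given tissue. The libraries here were stranded and selected for polyadenylated RNA, and the table gives no strand for a feature without a hit.

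The features were short. Their median length was 408 bases, with an interquartile range of 273 to 657, against 925 bases for the 52142 rows with a hit. Lengths ran from 93 to 25272 bases. The longest, MEDAKA053472 on chromosome 17 at 30779700 to 30848746, stood at 0.00819, 0.0116, 0.0133 and 0.00657 FPKM, close to 0 in every library. A length divisible by 3, the mark of a model made of whole codons, was found in 91.1% of the features and in 69.6% of the rows with a hit. Among the 1114 features whose mean reached 1 FPKM that share was 77.7%. The locus was as long as the feature, leaving no room for an intron, in 13.9%, against 2.25% of rows with a hit.

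They lay on all 24 chromosomes, with no unplaced sequence. Their share of a chromosome's rows ran from 30.7% on chromosome 17 to 41.7% on chromosome 10, which also had the fewest rows with a hit per megabase (57.3). Overlapping features share a locus and are not independent. Joined by overlap, they formed 23361 separate stretches, of which 16985 held 1 feature and the largest held 20. A feature with a mean of at least 1 FPKM was present in 1084 of the stretches.

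Most of these features had no measured level in the block. All 4 libraries listed 22772 of them (68.9%) at 0, which in a table without counts does not show that a feature is not transcribed, since a 0 can also be a failed estimate. In contrast, 10272 (31.1%) stood above 0 in at least 1 library. Every library was above 0 for 3060 (9.26%), against 50.8% of rows with a hit. A mean of at least 1 FPKM was reached by 1114 (3.37%), a mean of at least 10 by 205 and a mean of at least 100 by 7, whereas 40.7% of rows with a hit had a mean of at least 1. Between MEDAKA071876, with a mean of 0.999 FPKM, and MEDAKA027043, with 1.003, ran the line used to choose features for testing. The features together made up 2.17%, 2.12%, 2.18% and 2.16% of all FPKM.

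Detection did not separate the day lengths. The share of features above 0 was 17.3%, 20.2%, 17.5% and 18.0%. SD 2 was the highest library and the other 3 lay close together. The group means were 18.8% ± 2.03 in SD and 17.8% ± 0.323 in LD (SD of the values, n = 2 each; exact two-sided permutation test p = 1, where 0.3333 is the smallest p this design allows). SD 2 was also highest for rows with a hit, at 59.6% against 57.5% to 57.7% in the other libraries. Of the 3923 features seen in a single library, 1295 were seen in SD 2 and between 830 and 905 in each of the others. The median FPKM of these single sightings was 0.0741. At a threshold of 1 FPKM the shares were 3.45%, 3.44%, 3.37% and 3.47%, so the excess of SD 2 lay among features under that level. The depth of the libraries is not known from FPKM, and its part in this excess was not tested.

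Longer features were detected more often. A mean of at least 1 FPKM was reached by 2.63% of features under 300 bases, 3.49% of those of 500 to 1000 and 7.91% of those of 2000 or more. Rows with a hit stood above them in every length class, with 14.2%, 26.1% and 75.7% in the same 3 classes. Even the longest features were therefore below the shortest rows with a hit, so the difference between these sets was present at every length.

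**Figure D1:**
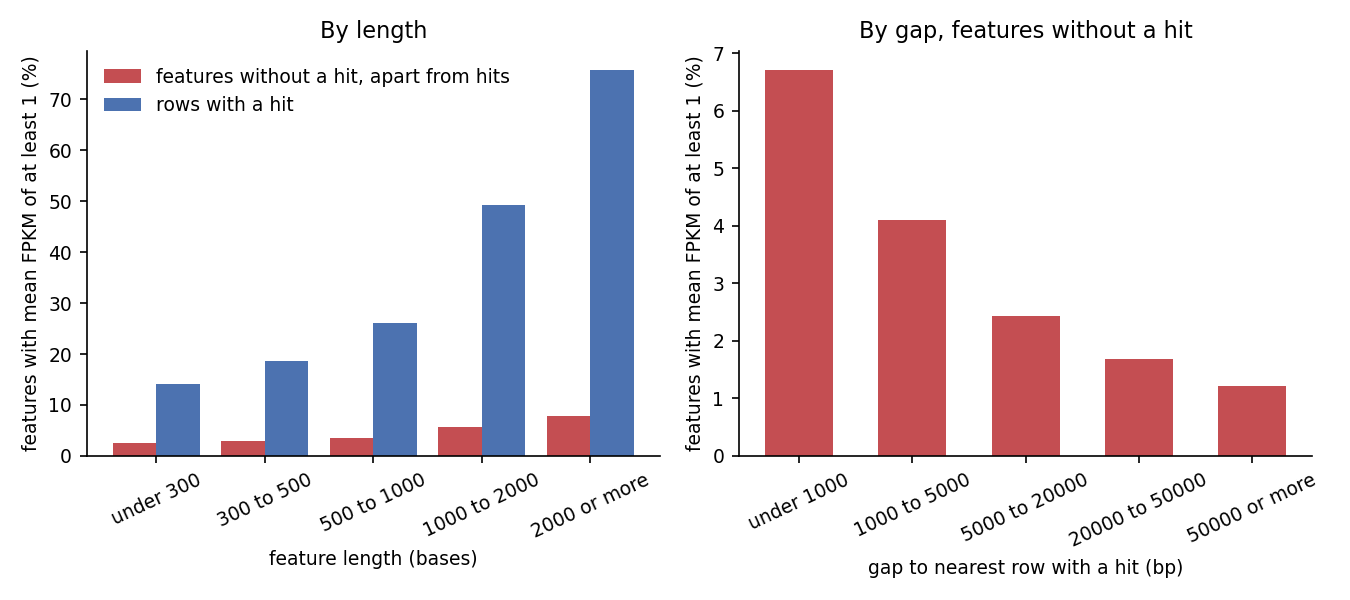
Percent of features whose mean over the 4 libraries reached 1 FPKM. The left panel gives features without a hit that lie apart from hits and rows with a hit by length in bases, where the former range from 2.63% to 7.91% and the latter from 14.2% to 75.7%. The right panel gives the features without a hit by their gap in bp to the nearest row with a hit, from 6.71% for the nearest to 1.21% for the farthest.

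Features near a known coding sequence were detected more often than remote ones. The median gap to the nearest row with a hit was 6324 bp over all features and 2435 bp over those with a mean of at least 1 FPKM. Within 1000 bp of a row with a hit 6.71% of 5081 features had such a mean, at 5000 to 20000 bp 2.43% of 10804, and at 50000 bp or more 1.21% of 2235. Beyond 50000 bp none reached a mean of 10 FPKM. The nearest row with a hit had a median level of 2.40 FPKM beside features with a mean of at least 1, of 0.157 beside features above 0 with a lower mean, and of 0.0402 beside features listed at 0 throughout.

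Many of the features without a hit overlapped the span of a RefSeq gene. Set against the RefSeq gene table of assembly ASM223467v1, 12989 features (39.3%) overlapped the span of a protein-coding gene, 1749 (5.29%) that of an lncRNA gene and no coding gene, 185 another kind of gene, and 18121 (54.8%) no gene. Among the 1114 with a mean of at least 1 FPKM, 718 (64.5%) overlapped a coding gene's span, 122 an lncRNA gene, 21 another gene and 253 (22.7%) none. The sources used here do not give the build of the deposited coordinates. The 23129 hit locations are those of the matched coding sequences. All fell inside the RefSeq span of their own gene, which does not show the build of the feature positions. The locus interval itself overlapped the location of its hit for 89.0% of rows with a hit. The RefSeq table was used to say which genes a feature lies in or beside, and positions printed here are those of the deposited table. RefSeq exons were not used here, and the coding segments used below come from the hit locations. An overlap with a span does not make the feature a part of that gene's RNA.

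A mean of at least 1 FPKM was reached by 5.53% of features in a coding gene's span, 6.98% of those in an lncRNA gene, 11.4% of those in another gene and 1.40% of those outside any gene. The order of coding span above no gene held in every length class, for example 4.47% against 0.957% under 300 bases and 13.9% against 2.54% at 2000 bases or more.

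Position within the coding gene went with detection too. Most features in coding spans, 8601, overlapped the stretch from the first to the last coding base, and 2.42% of these had a mean of at least 1 FPKM. Of the 8601, 7820 lay wholly between coding segments, as intronic sequence does, and 1.55% of those reached the level. The other 781 overlapped a coding segment, and 11.1% of them did. On the 5′ side of the coding sequence lay 3644 features, of which 8.75% reached it. Only 524 lay on the 3′ side, where the 3′ untranslated region is found, and 26.7% of these did. A further 220 lay in coding genes that no hit in the table named, and 23.2% of these reached 1 FPKM. Any overlap with the gene's span was enough for these classes. By the rule, a feature could lie in the coding stretch only where no row with a hit covered that place. The rule may thus bear unequally on these positions, and its part in the shares was not tested. Of features in coding spans 87.9% lay wholly inside the span, but only 53.9% of those with a mean of at least 1 FPKM.

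**Figure D2:**
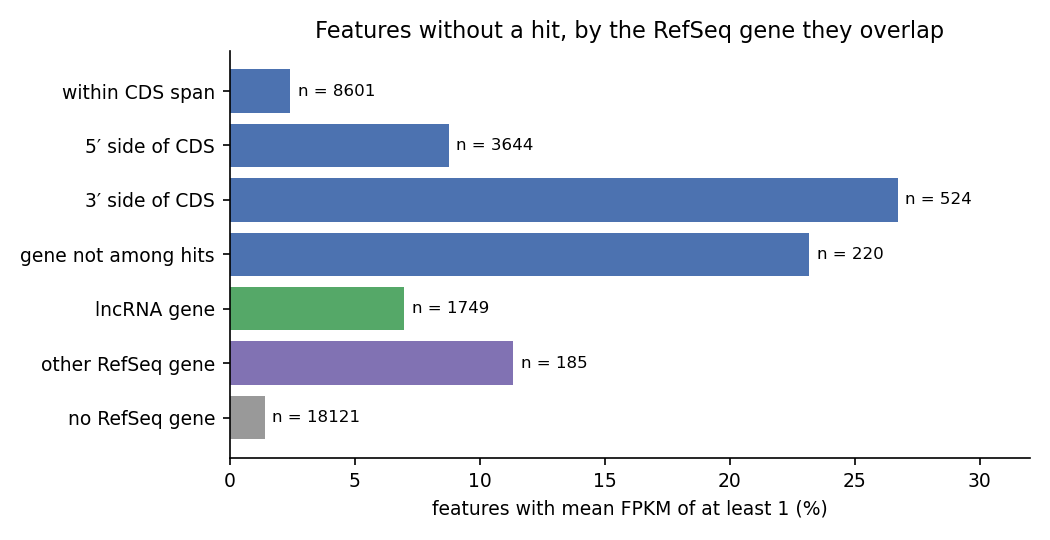
Share of features without a hit that had a mean of at least 1 FPKM, in percent, by the RefSeq gene whose span they overlap; the 4 upper bars split protein-coding genes by position relative to the coding sequence (CDS). Features on the 3′ side of a coding sequence had the highest share, 26.7%, and those outside any gene the lowest, 1.40%.

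Among the most abundant features on the 3′ side, MEDAKA069176 and MEDAKA061603 stood above their host gene and MEDAKA067505 below it. The FPKM of a host is summed here over its own named rows. MEDAKA069176, 198 bases on chromosome 12 at 26846065 to 26846454, stood at 268.7, 214.9, 262.9 and 250.2 FPKM. It lies 72 bp from the nearest row of the gene for the NMDA 1 subunit of the ionotropic glutamate receptor, the obligatory subunit of that receptor at excitatory synapses. The host stood at 244.4, 202.5, 225.1 and 230.6 FPKM, with SD 2 lowest for both. MEDAKA067505 on chromosome 8 at 603071 to 603318, in the span of the gene for double C2-like domain-containing protein alpha, a calcium sensor of transmitter release, stood at 74.7, 83.6, 90.2 and 93.3 FPKM. Its host stood at 104, 113, 123 and 120. Both LD values were above both SD values for feature and host, but the feature was not called (limma adjusted p = 0.789). MEDAKA061603, in the span of the gene for TRAF2 and NCK-interacting protein kinase on chromosome 20, stood above its host in each library. It was at 68.7, 56.2, 64.8 and 67.1 FPKM against 40.3, 37.8, 34.6 and 39.5. Over the 638 tested features whose host gene was also tested, the median ratio of feature to host FPKM was 0.148, with an interquartile range of 0.0668 to 0.341. The median was 0.395 on the 3′ side, 0.130 on the 5′ side and 0.101 for features that overlapped the coding stretch. Across features, log2(mean FPKM + 1) of feature and host correlated with Pearson r = 0.53 on the 3′ side (133 features) and 0.36 on the 5′ side (308). It was 0.12 for features that overlapped the coding stretch (197). Feature and host share the same 4 libraries, and some features share a host.

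Features on the 5′ side were less abundant. The highest by mean was MEDAKA020170 on chromosome 4 at 5938663 to 5938944, on the 5′ side of the gene for Rab-3B, a GTPase of secretory vesicles, at 39.8, 43.7, 44.3 and 43.8 FPKM. Its host stood at 163, 185, 182 and 173. In the R3H domain-containing protein 1 gene on chromosome 2, the features MEDAKA059297 (39.0, 33.3, 35.6 and 40.3 FPKM) and MEDAKA059293 (33.8, 29.0, 33.6 and 29.0) lay next to each other, and they share that host. MEDAKA021810, in the gene for synaptotagmin-3, a calcium-binding membrane protein, stood at 31.9, 27.8, 30.9 and 29.1 FPKM. The groups overlapped for these features, except that both LD values of MEDAKA020170 were just above both SD values (log2 difference 0.08).

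Among features that overlapped the coding stretch, some stood far above the host. MEDAKA044841 on chromosome 21 at 17073911 to 17088564 stood at 67.7, 65.3, 80.8 and 71.4 FPKM, while its host, the gene for general transcription factor IIF subunit 2, stood at 2.40, 1.79, 3.06 and 1.24. The feature lies 22 bp from kctd4, a gene of the potassium channel tetramerisation domain family, whose row stood at 184, 181, 218 and 194 FPKM. LD 1 was the highest library for feature and kctd4 alike. MEDAKA028949 on chromosome 19 stood at 35.0, 27.9, 29.3 and 29.4 FPKM in the span of a gene for KCTD5, whose summed rows were under 1 FPKM in every library.

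In coding spans 55 features whose mean reached 1 FPKM lay in a gene for which the table had no named row, and 44 of the 55 lay mostly inside its span. They were longer (median 1925 bases) and more abundant (median 10.3 FPKM) than the features tested as a whole (493 bases and 2.89 FPKM). MEDAKA081923, across the gene rps21, which encodes a protein of the small ribosomal subunit, stood at 91.2, 85.6, 97.6 and 101.5 FPKM. A row whose best hit was rps21 lies 9601 bp from it. MEDAKA093763, 4539 bases across hnrnpu, which encodes a nuclear RNA-binding protein, stood at 76.0, 72.4, 73.7 and 78.2. Others of this kind lay across kbtbd11 (MEDAKA004513; 62.4, 58.6, 69.7 and 65.5 FPKM), snx3, a sorting nexin of endosomes (MEDAKA035364; 26.7, 28.2, 29.5 and 26.1), and hmga1, an architectural chromatin protein (MEDAKA013054; 21.9, 20.6, 21.3 and 25.1). These features, and the most abundant ones given for each position and RefSeq class, were chosen after their values were seen. None of their day-length differences was called.

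Length did not go with abundance among the 3 longest features tested. MEDAKA091998, 8397 bases on chromosome 1 at 15765562 to 15794391, lies mostly in the span of tet2, which encodes an enzyme that oxidises methylated cytosine, and 21 bp from a row of ppa2. It stood at 11.2, 10.6, 10.7 and 10.6 FPKM. MEDAKA067391, 6937 bases on chromosome 8 in the span of LOC101156867, stood at 26.2, 26.4, 27.9 and 29.0. MEDAKA049629, 11737 bases on chromosome 6 at 21751912 to 21763648, lies in no RefSeq gene and stood at 0.988, 1.40, 1.03 and 1.02 FPKM, 17299 bp from kras, a small GTPase gene of growth signalling.

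The lncRNA class held 3 of the 5 most abundant features. MEDAKA012601, 601 bases on chromosome 2 at 24333406 to 24334843, was the highest of all, at 334.6, 403.4, 467.5 and 446.8 FPKM. Both LD values exceeded both SD values, with a log2 difference of 0.31 and a standard error of 0.10 (limma adjusted p = 0.789). It was 0.18 without SD 1 and 0.45 without SD 2. It overlaps LOC111946391 and lies 436 bp from the gene for ribose-phosphate pyrophosphokinase 2, an enzyme of nucleotide synthesis. MEDAKA010801, 557 bases on chromosome 11 at 10645982 to 10648610, overlaps the lncRNA gene LOC101159365 between dync1i1, a dynein subunit gene, and dlx6, a homeobox gene of inhibitory forebrain neurons. It stood at 159.5, 165.0, 163.1 and 154.2 FPKM, with overlapping groups. MEDAKA092819 on chromosome 12, in the lncRNA gene LOC101155702, stood at 145.5, 157.9, 158.2 and 129.2, again with overlap. MEDAKA040813 on chromosome 18 at 17628709 to 17630792, in the lncRNA gene LOC101168817, varied widely, at 130.6, 80.1, 60.5 and 49.8 FPKM. It lies 73 bp from mettl3, the gene of the enzyme that writes N6-methyladenosine on RNA, whose row stood at 7.79, 8.89, 7.91 and 9.80. Both SD libraries of the feature were above both LD libraries, but the SD libraries differed from each other by more than SD 2 did from LD 1, and the difference was not called (limma adjusted p = 0.789). MEDAKA035287 on chromosome 24, in LOC101172299, stood at 54.9, 57.6, 47.9 and 47.7 FPKM, with a log2 difference of -0.23 (limma adjusted p = 0.789).

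Of the 21 features in other kinds of RefSeq gene, 5 overlapped a pseudogene and 5 a transcribed pseudogene. A microRNA gene was overlapped by 4, a miscellaneous RNA gene by 4, a small nucleolar RNA gene by 2 and a V segment by 1. MEDAKA046161, 2337 bases on chromosome 14 at 21848460 to 21851773, overlaps mir21-2, of a microRNA family known in mammals for its rise in injury and growth, and stood at 38.1, 31.0, 35.5 and 31.8 FPKM. MEDAKA063529, 4265 bases on chromosome 9 at 23308255 to 23321658, overlaps mir1306 and stood at 32.8, 33.7, 32.1 and 31.8. It fills the interval between trmt2a and tango2, 129 bp from the former and 239 bp from the latter. MEDAKA056469 on chromosome 9, in the gene LOC101159511, of the RefSeq class of miscellaneous RNA, was the most abundant of this class, at 90.8, 90.3, 98.8 and 92.9 FPKM. A mature microRNA is not measured by such libraries, and the values are those of the listed features. The microRNA gene covered 0.0263 of the locus of MEDAKA046161 and 0.00821 of that of MEDAKA063529. Whether these features are primary transcripts of the microRNAs was not tested.

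Of the 253 features outside any RefSeq gene, MEDAKA029927, 807 bases on chromosome 24 at 9396693 to 9402979, was the most abundant, at 169.6, 144.0, 174.0 and 158.5 FPKM. It lies 4991 bp from mgat2, an enzyme gene of N-glycan synthesis. MEDAKA037424 on chromosome 23 at 21340762 to 21341531 stood at 131.9, 129.4, 146.2 and 143.0 FPKM. Its nearest row, 1450 bp away, belongs to celf2, an RNA-binding splicing regulator gene, and stood at 48.0, 52.0, 50.9 and 52.9. Both LD libraries of MEDAKA037424 were above both SD libraries, by a log2 difference of 0.15 (limma adjusted p = 0.793). MEDAKA079983, 5227 bases on chromosome 18 at 22412315 to 22420247 and 10360 bp from the nearest hit, stood at 120.9, 111.2, 115.2 and 113.6 FPKM. MEDAKA080499 on chromosome 7, 490 bp from las1l, a gene of ribosome biogenesis, stood at 75.3, 82.8, 67.8 and 73.7, far above the 8.06, 7.57, 9.09 and 9.28 of that neighbour. The groups overlapped for MEDAKA029927 and MEDAKA079983, and both SD values of MEDAKA080499 were above both LD values (log2 difference -0.16, limma adjusted p = 0.801).

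Among the 1114 features tested, 4 were named for their gap alone. MEDAKA058309 on chromosome 2 had the widest gap of those tested, 193100 bp, and stood at 0.0486, 1.48, 2.53 and 0 FPKM, with a large range within each group. MEDAKA086194 on chromosome 22, 151945 bp from its nearest hit and in a stretch of 5 overlapping features, stood at 3.16, 0.968, 4.52 and 2.45. MEDAKA060304 on chromosome 1 lies 2 bp from a row of grk4, a kinase gene that desensitises G protein-coupled receptors, and stood at 6.97, 7.64, 6.67 and 9.10 FPKM, against 35.6, 36.2, 41.5 and 40.5 for the host. MEDAKA020014 on chromosome 4 overlaps the span of the coding gene LOC101168279 and lies 3 bp from npl, an enzyme gene of sialic acid breakdown, and stood at 13.7, 15.4, 16.8 and 14.6. The groups overlapped for all 4.

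The comparison of LD with SD asks which RNAs differ 16 h after the move to long days. It called no feature of the 1114 tested, against 2 of all 17252 genes and features tested (0.0116%, with 0.0058% higher and 0.0058% lower in LD; limma on log2(FPKM + 1), Benjamini-Hochberg adjusted over all 17252 with a threshold of 0.05). The 31930 features with a mean under 1 FPKM were not tested. In everything tested genes were summed over their rows, while each feature is a single row, so the shares below compare unlike units. At an unadjusted p under 0.05 there were 95 features (8.53%, against 6.32% of everything tested), of which 55 had higher values in LD (4.94% against 2.54%) and 40 lower (3.59% against 3.79%). For 389 features the groups were separate, with no overlap of their libraries (34.9% against 37.1%), with 209 higher in LD (18.8% against 16.3%) and 180 lower (16.2% against 20.8%). The difference was above 0 for 580 features (52.1% against 46.3%). The median log2 difference was 0.01 over the features, with an interquartile range of -0.15 to 0.17, and -0.01 over everything tested, with -0.12 to 0.08.

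The wider range of the features went with more spread between libraries of one group. On the log2(FPKM + 1) scale SD 1 and SD 2 differed by a median of 0.189, and LD 1 and LD 2 by 0.209, against 0.126 and 0.118 over everything tested. Between libraries of different groups it was 0.202 to 0.220 for the features, which is about as large as within the groups. The sets are built differently, since everything tested includes genes summed over their rows and each feature is a single row. Features were also lower and shorter than other rows. The median of the mean FPKM was 2.89 over the features and 10.7 over everything tested. At 10 FPKM or more the within-group values were 0.143 in SD and 0.149 in LD for 205 features, and 0.101 and 0.0936 for 9623 rows with a hit. The median lengths there were 557 and 1977 bases, and the part of length, level or summing in the spread was not tested.

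By RefSeq class no feature was called either. The median log2 difference was 0.00 for the 718 features in coding spans, -0.05 for the 122 in lncRNA genes, 0.01 for the 21 in other genes and 0.08 for the 253 outside any gene. Values above 0 were found for 367, 56, 11 and 146 of these, where 46.3% of everything tested was above 0. At an unadjusted p under 0.05 there were 56 (7.80%), 14 (11.5%), 2 (9.52%) and 23 (9.09%), against 6.32% of everything tested. Differences between the classes were not tested.

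**Figure D3:**
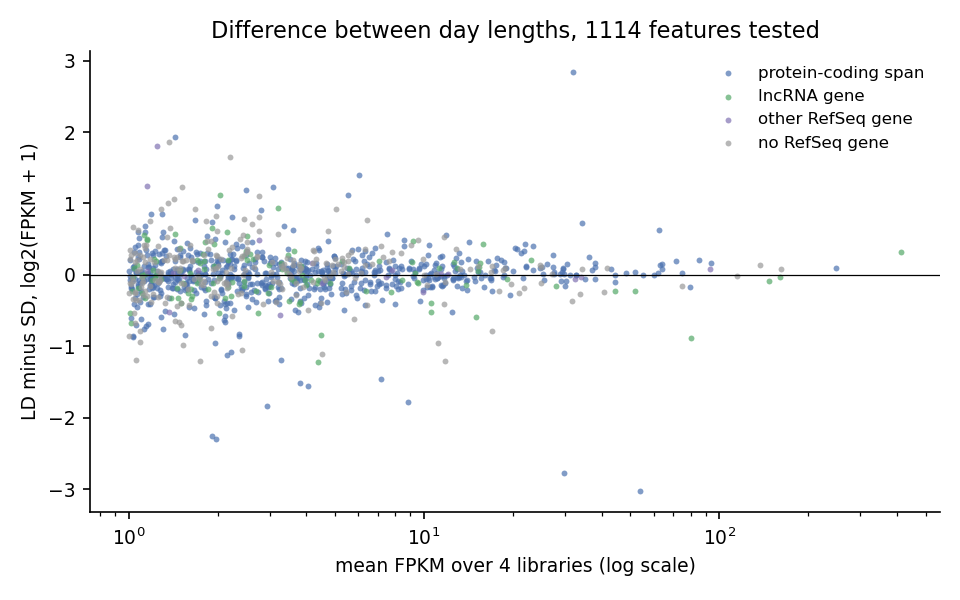
Difference between LD and SD in log2(FPKM + 1), on the vertical axis, against the mean FPKM over the 4 libraries on a log axis, for the 1114 features tested; each point is a feature, coloured by the RefSeq gene it overlaps. The quartiles are -0.15 and 0.17, and the points at -3.03 and 2.85 are features listed at 0 in a single library.

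The smallest p-values belonged to features listed at 0 in both libraries of a group. MEDAKA077826, 423 bases on chromosome 6 at 31513438 to 31515688, stood at 3.52 and 4.37 FPKM under short days and at 0 in LD 1 and LD 2 (limma adjusted p = 0.127, and 0.0571 to 0.72 over the alternative settings). It overlaps the 5′ end of the span of a gene for oxysterol-binding protein-related protein 5, a lipid transfer protein, whose own level was even, at 110.1, 97.5, 105.5 and 110.4. MEDAKA012791, 192 bases on chromosome 8 at 5862466 to 5865546, stood at 4.52 and 3.13 FPKM under short days and at 0 in each LD library (limma adjusted p = 0.188). It overlaps the span of the gene for F-box/LRR-repeat protein 20, a ubiquitin ligase component, and lies 48 bp from a row of that gene. The gene stood at 15.6, 14.8, 14.4 and 14.3. The low feature MEDAKA001482, which overlaps the span of ankrd6, stood at 1.71 and 1.11 FPKM under short days. It was at 0 under long days, and its mean was under the level for testing.

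In the other direction 4 features were at 0 in SD 1 and SD 2 and reached 1 FPKM in LD 1 and LD 2 (0.0121% of the 33044, against 0.017% of all rows and 0.0192% of rows with a hit). The reverse pattern, at 0 in LD, was that of the 3 features just named (0.00908%, against 0.0149% of all rows and 0.0173% of rows with a hit). MEDAKA054137, 261 bases on chromosome 1 at 4801077 to 4806897, stood at 2.56 and 2.44 FPKM in LD 1 and LD 2 (limma adjusted p = 0.244). It lies in a RefSeq gene of the miscellaneous RNA class, LOC101156709, in a stretch of 4 overlapping features without a hit. With limma run without a mean-variance trend it was the only feature called (limma adjusted p = 0.0474), and over all alternative settings its limma adjusted p ran from 0.0474 to 0.72. MEDAKA058620, 267 bases on chromosome 2 at 22529736 to 22531423, stood at 2.27 and 3.48 FPKM in LD (limma adjusted p = 0.347). It lies in the gene for muscleblind-like protein 2a, a splicing regulator, whose level was even, at 59.8, 63.4, 66.0 and 63.4. MEDAKA070315, 251 bases on chromosome 16 at 10454705 to 10455601 and outside any RefSeq gene, stood at 3.56 and 1.92 in LD (limma adjusted p = 0.543). MEDAKA032514, near the start of chromosome 24, stood at 1.298 and 1.70 in LD and was not tested. The tested features at 0 in a whole group, in either direction, reached a mean of 1 FPKM through the other group alone. Values at 0 in both libraries of a group have no spread, which lowers the p-value. Their p-values are therefore no support for a difference. The fitted difference against a group at 0 is set by the pseudocount and is no measure of size. For MEDAKA077826 it was -2.30 on the log2 scale with a pseudocount of 1 and -5.33 with 0.1, and for MEDAKA054137 1.81 and 4.70.

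The other 5 of the 8 features with higher values in LD that were named by p were above 0 in all 4 libraries. MEDAKA064890, 198 bases on chromosome 2 at 1066096 to 1073323, was the most abundant of these 8, at 45.6, 51.7, 68.3 and 83.6 FPKM (log2 difference 0.63, SE 0.12, limma adjusted p = 0.669). It lies on the 3′ side of the coding sequence of the gene for the muscarinic acetylcholine receptor M4, an inhibitory receptor of the forebrain. The host stood at 47.0 and 61.5 in SD and 48.4 and 64.4 in LD, where the groups overlapped. MEDAKA024680 on chromosome 21, between zinc finger genes, stood at 3.20, 3.07, 5.998 and 7.85 FPKM. MEDAKA031715 on chromosome 19 stood at 1.58 and 1.88 in SD and 3.54 and 4.04 in LD, 20578 bp from the gene for the protein shisa-6 homolog, of a family that modulates glutamate receptors. MEDAKA056536 on chromosome 9 stood at 0.432 and 0.555 in SD and 1.96 and 3.14 in LD. The nearest row with a hit is 19288 bp away. MEDAKA067596 on chromosome 8, in the lncRNA gene LOC111947727 between tmem104 and the NMDA receptor gene grin2c, stood at 2.27 and 1.53 in SD and 5.01 and 4.06 in LD. For these last 4 the limma adjusted p lay between 0.615 and 0.684.

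Among features with lower values in LD named by p, the hosts of MEDAKA065714, MEDAKA082509 and MEDAKA012791 had separate values too, also lower in LD. The log2 differences of these hosts were -0.42, -0.19 and -0.07 in that order. Of everything tested, 20.8% was separate and lower in LD. Over the 638 tested features whose host was also tested, the log2 differences of feature and host correlated only weakly (Pearson r = 0.10, Spearman rho = 0.21). MEDAKA065714, 324 bases on chromosome 14 at 8363729 to 8365851, lies on the 3′ side of the coding sequence of crebrf. That gene is a regulator of CREB3 and of glucocorticoid receptor turnover in mammals. It stood at 9.36, 9.21, 7.13 and 6.33 FPKM, and crebrf at 10.3 and 9.83 in SD and 7.35 and 7.25 in LD. Neither was called (limma adjusted p = 0.789 for MEDAKA065714). MEDAKA082509 in tead1, a transcription factor gene of the TEF-1 family, stood at 2.92, 2.89, 0.796 and 1.26 FPKM (limma adjusted p = 0.669), and its host at 17.1, 18.8, 16.1 and 15.1. MEDAKA088379 in LOC101161457, annotated as TEF-1 too, stood at 6.35, 6.50, 4.53 and 4.02 FPKM (limma adjusted p = 0.787). The groups overlapped for that host, at 20.3, 21.8, 18.5 and 21.0. Neither feature was called, and no group of genes was tested here.

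MEDAKA079823 on chromosome 18 at 21516223 to 21516717, outside any RefSeq gene, stood at 7.04, 5.96, 1.98 and 3.06 FPKM (log2 difference -1.11, SE 0.19, limma adjusted p = 0.62). MEDAKA027499 on chromosome 22 at 12389371 to 12390494, in the lncRNA gene LOC105356928 and 706 bp from unc79, a gene of a sodium leak channel complex, stood at 12.4 and 12.9 in SD and 9.08 and 7.93 in LD (log2 difference -0.52, SE 0.10, limma adjusted p = 0.66). MEDAKA011302, 1606 bases on chromosome 11 in the span of LOC101166063 and 388 bp from mturn, a gene of neural differentiation in the frog, stood at 7.39 and 7.33 in SD and 5.38 and 5.07 in LD. The groups were separate for all 3, and none was called.

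**Figure D4:**
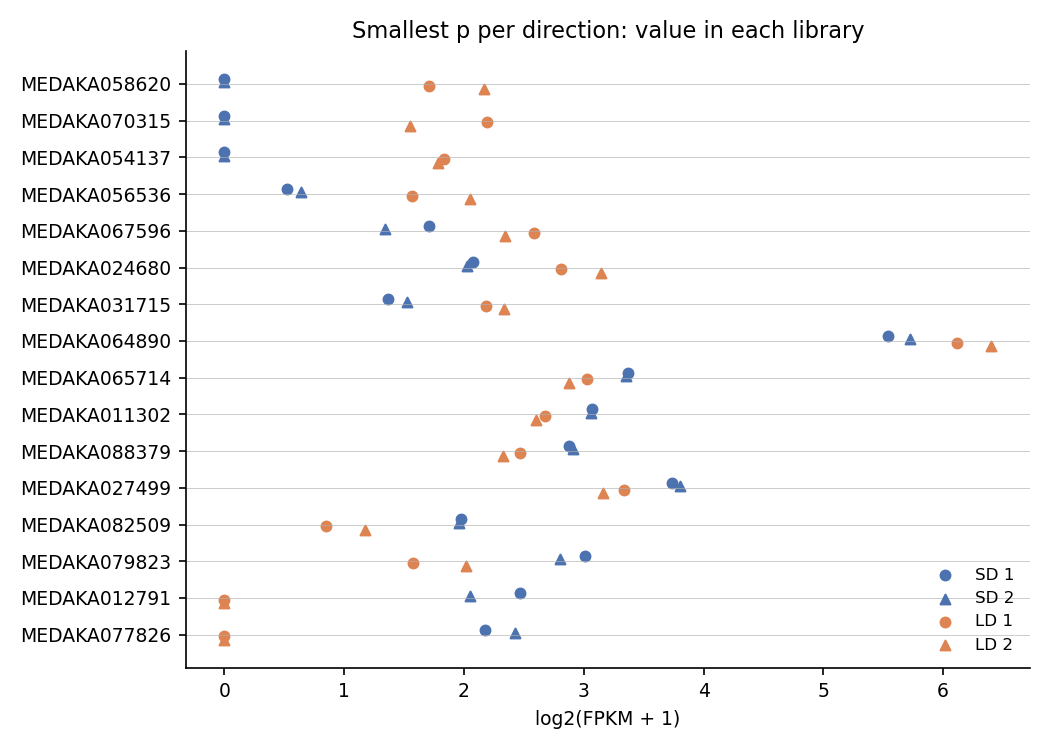
Value of log2(FPKM + 1) in each library for the 8 features per direction with the smallest p among those whose LD libraries both lay on one side of both SD libraries; circles are replicate 1, triangles replicate 2, blue SD and orange LD. The features listed at 0 in a whole group stand at the left edge in that group, and no feature passed the adjusted threshold.

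The largest differences in each direction came from MEDAKA047201 and MEDAKA062499, each listed at 0 in 1 library. Of the 1114 features, 37 (3.32%) were at 0 in some library, against 0.915% of rows with a hit whose mean reached 1 FPKM. In 5 of them (0.449% of the 1114, against 0.141% of rows with a hit) a library at 0 stood beside one at 10 FPKM or more. The features were lower and shorter than those rows, with medians of 2.89 against 8.79 FPKM and 493 against 1689 bases. The part of level and length in these shares was not tested. All 5 features overlapped the span of a coding gene, as did 64.5% of the 1114. The span covered only 0.173 of the locus of MEDAKA091638 and 0.201 of that of MEDAKA079482. MEDAKA047201, in caskin1, a gene of a synaptic scaffold protein, stood at 75.3, 65.3 and 74.4 FPKM in SD 1, SD 2 and LD 1 and at 0 in LD 2. MEDAKA062499, in cnksr2, another scaffold gene of the synapse, was at 0 in SD 1 and at 38.8, 42.4 and 46.4 in SD 2, LD 1 and LD 2. MEDAKA091638 beside btg1, an antiproliferative gene, was at 0 in LD 1 and at 46.4, 36.0 and 36.7 elsewhere. Their hosts varied far less, with caskin1 at 103, 88.8, 81.0 and 92.6, cnksr2 at 93.0, 76.4, 65.5 and 95.5, and btg1 at 110, 98.8, 88.0 and 95.1. MEDAKA047202 in caskin1, the neighbour of MEDAKA047201 on the same side of the coding sequence, stood at 64.3, 55.7, 69.3 and 62.7 FPKM and was at 0 in no library. MEDAKA079482 beside tsc22d2 was at 0 in LD 2 (13.2, 9.98 and 12.2 in SD 1, SD 2 and LD 1), and MEDAKA021801 was above 0 only in SD 2 (11.7). MEDAKA070864 lies 151 bp from the nearest row of a gene for proteolipid protein DM beta. It stood at 0.0601, 66.7, 1.80 and 68.7 FPKM, low in both replicates numbered 1 and high in both numbered 2. The nearest row of that gene did so as well, at 20.9, 46.7, 28.5 and 47.0. Summed over its rows the gene stood at 261, 284, 287 and 304.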

How the data were processed

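The authors deposited 1 table of FPKM values, with 1 column per library per the file headers, and each row names its best BLAST match among coding sequences beside its position and size. Per the submitters' processing notes HISAT2 2.0.5 and StringTie 1.3.3b were used, in roles the notes do not give. No source used here names the genome build. The labels' protocols name a stranded TruSeq mRNA kit. FPKM values are not counts, so the depth of each library is unknown and no counting interval is given.

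Features whose hit lay at their own locus (46410) were summed by gene, giving 68193 units. The 17252 units with a mean of at least 1 FPKM entered limma 3.58.1 (R 4.3.3) as log2(FPKM + 1) (group only, mean-variance trend, two-sided, Benjamini-Hochberg, threshold 0.05). This scale understates changes of low features. The fit was also run on simulated data, with normal noise and planted changes over everything tested, where it missed some changed units and called some unchanged ones. That run did not look at the features without a hit apart from the rest. A feature that was not called here may still differ. Gaps count the bases between locus intervals, which carry no strand.

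Named features were, by rule: calls, up to 8 per direction by p with separate groups, the 5 most abundant, those at 0 in a whole group, the 3 longest, and the 2 nearest and 2 farthest from a hit. The members and lists were chosen with earlier results of these data known, and the RefSeq classes, the tops of classes and the features with isolated zeros were added after the data were examined. A feature in several RefSeq genes was put with coding before lncRNA before other genes. Positions relative to a coding sequence use the hit locations and strands in the table. Work was done in Python 3.11.15 with pandas 2.3.3, scipy 1.17.1 and matplotlib 3.10.9. The labels do not say whether the replicate numbers pair the samples, and the main fit did not pair them (see the closing section).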

Additional observations from a re-analysis of the deposited data

How the results depend on the processing

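The count of 0 features called held with a pseudocount of 0.1, without a filter, at a mean of at least 5 FPKM, with robust variance, with the replicate block, with features not summed, under both rescalings, and for features at least 1000 or 5000 bp from a hit. It was 1 without a trend (MEDAKA054137), and between 0 and 1 when a library was left out: MEDAKA062499 without SD 2 and MEDAKA047201 without LD 1, where the lone library left in that group was listed at 0 and is assumed to vary like the other group. Over everything tested the count of 2 became 1 with a pseudocount of 0.1, 0 without a filter, 5 without a trend, 3 with robust variance, 0 with the replicate block, 7 with features not summed, and 0 to 2 without a library. Over everything tested, the deviations from the group means correlated with r = 0.02 for same-numbered libraries and -0.02 for crossed numbers. With 2 libraries per group these values mirror each other by construction. They do not show whether same-numbered libraries were handled together. A mean of 1 FPKM was reached by 1114 features, and 381 of them lay at least 5000 bp from a hit. Without a library they numbered 1111 to 1133. Features at 1 FPKM or more in all 4 libraries numbered 840, against 3060 above 0, and without a library 3302 to 3476 were above 0 in the rest. Within 5000 bp of any hit lay 44.3% of features, and of a hit with a mean of at least 1 FPKM 21.5%. With most of the feature inside, coding spans held 36.3% in place of 39.3%, and 49.6% in place of 64.5% of those with a mean of at least 1. The leave-out runs and this last choice were added after the data were seen for these counts. Of 351 alternative values for 28 named features, 341 kept their direction and side of the threshold. With a pseudocount of 0.1 the log2 differences of the features at 0 in a whole group moved to -5.33 (MEDAKA077826), -5.27 (MEDAKA012791), 4.70 (MEDAKA054137), 4.86 (MEDAKA058620) and 4.76 (MEDAKA070315), by the construction of the scale, and none was called. Leaving out a library turned the direction for 8 of them, whose log2 differences then ran from -0.067 to 0.25 (MEDAKA069176, turned without SD 2), -0.030 to 0.20 (MEDAKA029927, SD 2), -0.25 to 0.026 (MEDAKA049629, SD 2), -0.073 to 0.0080 (MEDAKA010801, LD 2), -0.23 to 0.061 (MEDAKA092819, LD 2), -0.11 to 0.28 (MEDAKA060304, LD 2), -0.059 to 0.0034 (MEDAKA091998, SD 1) and -0.69 to 1.13 (MEDAKA058309, SD 1 and LD 1). The cause was not tested.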
